A study of Homo sapiens with 6 samples.

Results

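The MYC, MAX and MXD network is a group of transcription factors, and here it was taken as 10 genes chosen by name: MYC, MAX, MXD1, MXD3, MXD4, MXI1, MNT, MLX, MGA and MLXIP. Of these, 9 had at least 1 probe set that named the gene alone, out of 19676 genes measured that way. The exception was MXD4, whose 3 probe sets are annotated jointly to MIR4800 and MXD4 and were assigned to neither. Biotin-labelled cRNA of A375, an established line from a human melanoma that carries mutant BRAF, was hybridised to 6 Affymetrix arrays, 1 for each condition. For 6 h the cells received DMSO (the solvent), vemurafenib at 10 µM, AT9283 at 100 nM, or both drugs at these doses, called the combination below. For 16 h they received DMSO or vemurafenib at 10 µM, and none of the 6 arrays is of AT9283 or the combination at 16 h. Vemurafenib inhibits mutant BRAF and so the ERK pathway that it drives, and AT9283 inhibits several kinases, the Aurora kinases and JAK2 among them. All conditions use the same single cell line, so the values describe this line.

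MYC binds DNA as a dimer with MAX at a short sequence called the E-box, where it raises transcription of genes for ribosome production, nucleotide synthesis and growth. MXD1, MXD3, MXD4, MXI1 and MNT also pair with MAX, bind the same sequence and recruit SIN3 and histone deacetylases, which lowers transcription. MGA pairs with MAX inside a repressive polycomb-type complex. MLX is a MAX-like partner of MLXIP (also called MondoA), which senses sugar phosphates and drives TXNIP and ARRDC4. In melanoma with mutant BRAF, MYC is known as a gene that ERK signalling keeps high.

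The E-box links the members to one another, so the promoters of the members were searched for it. The motif was CACGTG, which reads the same on both strands, and the windows ran from 250 bases before to 50 bases after a gene start in RefSeq (GRCh38.p14). Windows of 9 members were searched, all but MYC, and 3 of these members held the motif, MXD4, MNT and MLX. No window of MYC was searched, so whether its promoter holds the motif was not tested. Of all 27305 genes with a window 8.77% held it, and of all 35116 windows 7.26% did. The motif began 50 bases before the gene start in MLX and 193 bases before it in MNT. It also stood 210 bases before the start of ARRDC4, a target of the MLX and MLXIP pair, and it was in neither window of TXNIP. The windows of MLX (chr17:42566850-42567149, plus strand), MNT (chr17:2401011-2401310, minus strand) and ARRDC4 (chr15:97960453-97960752, plus strand) are shown because these genes carry the E-box and were measured on the arrays. Capitals mark the E-box, and a match describes the letters and is not evidence of binding.
MLX: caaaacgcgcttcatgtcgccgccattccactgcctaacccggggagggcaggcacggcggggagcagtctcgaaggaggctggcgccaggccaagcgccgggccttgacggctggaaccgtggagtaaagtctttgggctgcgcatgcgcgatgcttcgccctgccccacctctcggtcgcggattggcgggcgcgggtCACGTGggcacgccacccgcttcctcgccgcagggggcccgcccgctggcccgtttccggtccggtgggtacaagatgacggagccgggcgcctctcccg
MNT: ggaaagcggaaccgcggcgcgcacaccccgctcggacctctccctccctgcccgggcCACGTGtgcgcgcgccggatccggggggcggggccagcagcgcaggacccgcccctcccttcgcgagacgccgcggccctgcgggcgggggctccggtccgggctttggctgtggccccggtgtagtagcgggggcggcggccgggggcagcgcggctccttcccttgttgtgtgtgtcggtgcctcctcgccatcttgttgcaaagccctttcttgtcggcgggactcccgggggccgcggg
ARRDC4: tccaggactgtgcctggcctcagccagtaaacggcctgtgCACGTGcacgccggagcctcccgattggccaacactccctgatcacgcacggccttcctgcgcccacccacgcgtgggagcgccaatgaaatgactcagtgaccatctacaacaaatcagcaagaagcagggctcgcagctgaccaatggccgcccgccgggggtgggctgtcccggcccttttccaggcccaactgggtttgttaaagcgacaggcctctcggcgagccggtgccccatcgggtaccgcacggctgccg

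Values are log2 intensities, and a difference is the log2 value of the first array less that of the second. "Rose" and "fell" are used for genes past a size rule, a log2 difference of 1 or more (2-fold) with the higher of both arrays at log2 6 or more (an intensity of 64), a level called the floor. The size rule is no test, and with 1 array per condition there is no replicate error for single differences. The order of a gene's levels over the conditions therefore has no spread to be set against. Across arrays the median intensity was 19.79 to 21.29, and 44.7% to 46.1% of genes lay at or above the floor. The SD over genes at the floor was 0.13 for AT9283 minus DMSO. Of 9 measured melanoma or neural crest markers, 4 reached the floor on any array. SOX10 (log2 9.14 in DMSO at 6 h), MITF (9.05) and AXL (11.4) were high, while the pigment genes PMEL, MLANA and TYR stayed below the floor on every array. Of 11 markers of other lineages 2 reached it, COL1A1 (6.75 in DMSO at 6 h) and PDGFRB (6.16 under vemurafenib at 6 h).

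MYC was the one measured member that fell, and it did so wherever vemurafenib was present. At 6 h its level was log2 7.44 in DMSO, 7.23 with AT9283, 5.31 with vemurafenib and 4.36 with the combination. At 16 h it was 7.24 in DMSO and 3.94 with vemurafenib. The 3 arrays without vemurafenib lay between 7.23 and 7.44 and the 3 arrays with it between 3.94 and 5.31, with no overlap. The share of all genes that separate in this way was not counted. A lack of overlap, here and for the genes below, is therefore a description only. In bulk RNA, fewer cells holding the transcript and less transcript per cell cannot be told apart.

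Vemurafenib minus DMSO at 6 h gave a difference of -2.13 for MYC, so 22.8% of the DMSO intensity was left. Of 9095 genes at the floor, MYC was number 37 from the lowest. By the size rule 2.14% of those genes fell and 1.03% rose. Combination minus AT9283 gave -2.87, which left 13.7%, beside 1.97% of genes falling and 0.452% rising. Combination minus DMSO gave -3.08, which left 11.8% and put MYC at number 12 from the lowest, beside 1.93% falling and 0.639% rising. At 16 h vemurafenib minus DMSO gave -3.30, which left 10.1% and put MYC at number 26, beside 5.79% falling and 5.19% rising. All 3 arrays with vemurafenib put MYC below the floor, and it has a single probe set. With 16 added to each intensity, which damps values near background, the differences were -1.77 at 6 h, -2.38 for the combination and -2.42 at 16 h.

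**Figure D1:**
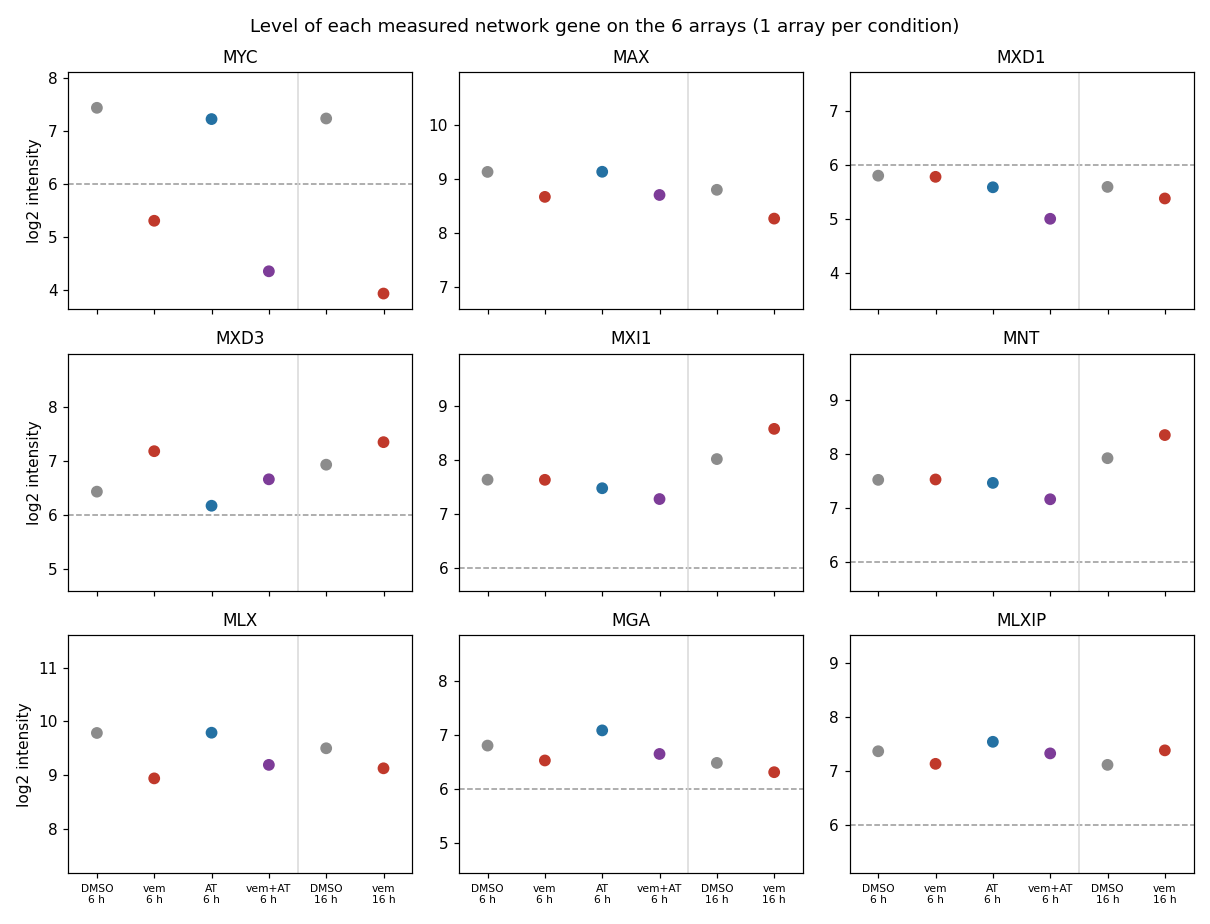
Log2 intensity (y axis, spanning at least 4.4 log2 units in each panel) of the 9 measured genes on the 6 arrays (x axis; vem is vemurafenib, AT is AT9283), with 1 point per array, a vertical line between 6 h and 16 h and a dashed line at log2 6. MYC lies at 7.23 to 7.44 without vemurafenib and at 3.94 to 5.31 with it, while MXI1 and MNT have their highest point with vemurafenib at 16 h.

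Vemurafenib could be set against a control without it in 3 pairs of arrays that share no array. These were vemurafenib minus DMSO at 6 h, combination minus AT9283 at 6 h and vemurafenib minus DMSO at 16 h. The pairs differ in time and in AT9283, so they are not replicates, and the SD over them holds those differences. MYC averaged -2.77 ± 0.59 (SD, n = 3 pairs). Of the 9 measured members 5 were lower in all 3 pairs (MYC, MAX, MXD1, MLX and MGA) and 1, MXD3, was higher in all 3. Over all 9707 genes with an array at the floor, 27.9% were lower and 35.1% higher in all 3. MXD1 is not among the 9707, since it lay below the floor on every array. The sign of MXD1 at 6 h turned with the mean over probe sets, and without probe sets ending in _s_at or _x_at that of MLX turned in combination minus AT9283 and that of MGA at 16 h.

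MAX, the partner that MYC and the repressors share, was lower with vemurafenib by a small amount, even over the pairs on the probe set used. Its level at 6 h was log2 9.14 in DMSO, 9.14 with AT9283, 8.68 with vemurafenib and 8.71 with the combination. At 16 h it was 8.81 in DMSO and 8.27 with vemurafenib. The arrays without vemurafenib (8.81 to 9.14) did not overlap those with it (8.27 to 8.71). The 3 pairs gave -0.46, -0.43 and -0.53, or -0.48 ± 0.05 (SD, n = 3 pairs), the smallest SD over the pairs among the 9 members. The 3 other probe sets of MAX that reached the floor were also lower in all 3 pairs, with differences between -0.59 and -0.11. They were less even, each with its smallest difference in combination minus AT9283 (-0.11, -0.29 and -0.24).

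MLX, the MAX-like partner of MLXIP, had its largest difference at 6 h. It stood at log2 9.79 in DMSO, 9.79 with AT9283, 8.95 with vemurafenib and 9.20 with the combination at 6 h. At 16 h it stood at 9.50 in DMSO and 9.13 with vemurafenib. The arrays without vemurafenib (9.50 to 9.79) did not overlap those with it (8.95 to 9.20). The pairs gave -0.84, -0.60 and -0.37, or -0.60 ± 0.24 (SD, n = 3 pairs). At 6 h -0.84 left 55.8% of the DMSO intensity, and 2.78% of genes at the floor were lower than MLX there. The 3 other MLX probe sets at the floor gave -0.85 to -0.72 at 6 h and -0.55 to -0.47 at 16 h. The 2 probe sets below the floor on every array ran from -0.15 to 0.25 over the pairs.

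**Figure D2:**
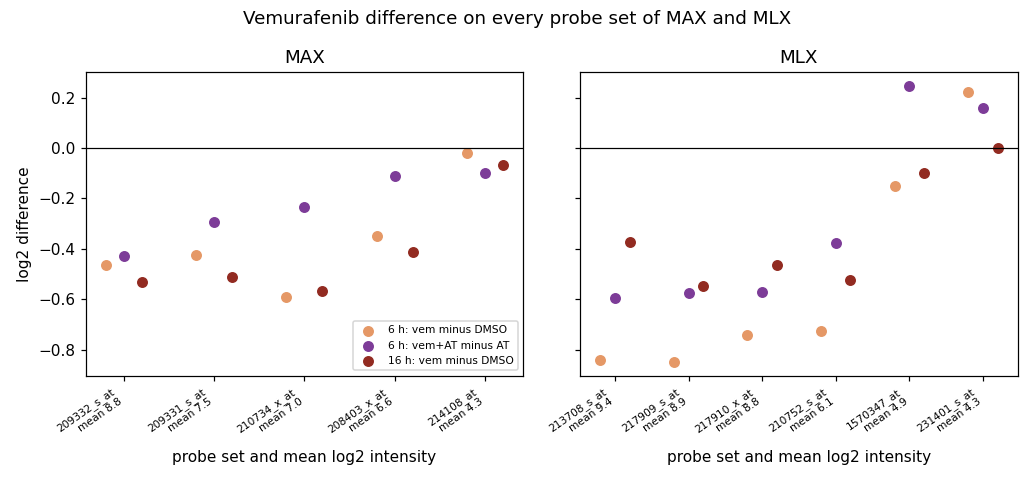
Log2 difference (y axis) in the 3 vemurafenib pairs for every probe set of MAX and MLX, ordered by mean log2 intensity (x axis), with 1 point per pair. The 4 brightest probe sets of each gene lie below 0 in all pairs, and the dim ones lie near 0 or, for MLX, on both sides of it.

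MLXIP, which carries the sugar sensing of the MLX dimer, moved little. At 6 h it was log2 7.37 in DMSO, 7.14 with vemurafenib, 7.55 with AT9283 and 7.33 with the combination. At 16 h it was 7.12 in DMSO and 7.39 with vemurafenib. The levels with and without vemurafenib overlapped, and the range over the 6 arrays was 0.43, the narrowest of the 9. A second MLXIP probe set at the floor gave -0.00 at 6 h and 0.49 at 16 h, against -0.23 and 0.27 on the one used.

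MGA was lower in all 3 pairs, by small amounts. It was log2 6.80 in DMSO, 6.53 with vemurafenib, 7.08 with AT9283 and 6.65 with the combination at 6 h, and 6.48 in DMSO and 6.31 with vemurafenib at 16 h. The groups overlapped, since the DMSO array at 16 h lay below both 6 h arrays with vemurafenib. The pairs gave -0.28, -0.44 and -0.17. A probe set of MGA that reached the floor on 2 arrays had 0.02 at 16 h.

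**Figure D3:**
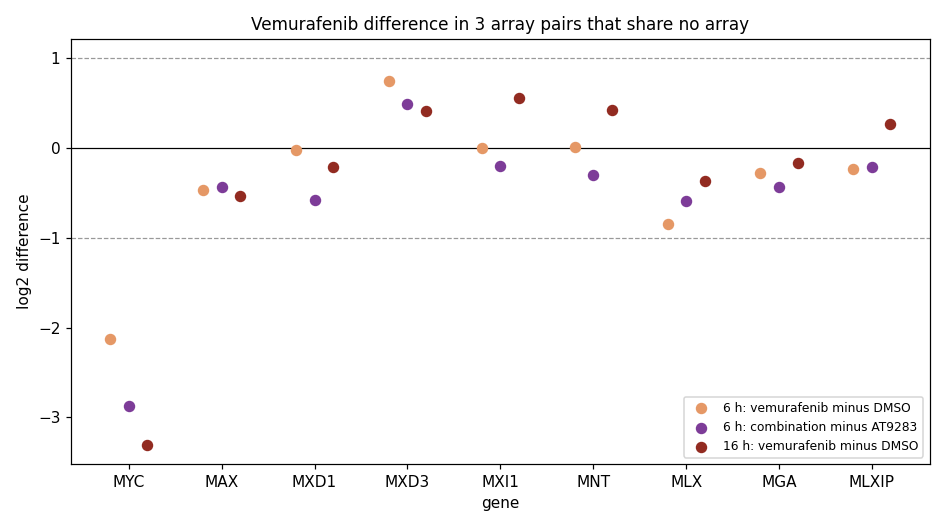
Log2 difference (y axis) for each of 9 genes (x axis) in the 3 vemurafenib pairs that share no array, with 1 point per pair and dashed lines at -1 and 1. MYC lies below -2 in each, MAX between -0.53 and -0.43, and MXD3 between 0.42 and 0.75, while MXI1 and MNT are above 0.4 at 16 h and near 0 or below it at 6 h.

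The SIN3-binding repressors did not share one pattern. MXD3, a repressor found in dividing cells, was higher with vemurafenib. It was log2 6.43 in DMSO, 7.17 with vemurafenib, 6.16 with AT9283 and 6.65 with the combination at 6 h. At 16 h it was 6.92 in DMSO and 7.34 with vemurafenib. Each vemurafenib array was above its own control, yet the 16 h DMSO array was above the 6 h combination, so the groups overlapped. The pairs gave 0.75, 0.49 and 0.42, or 0.55 ± 0.17 (SD, n = 3 pairs), and at 6 h 1.88% of genes at the floor were higher than MXD3.

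MXI1 and MNT, repressors that antagonise MYC at the E-box, were alike to each other and differed from MXD3. MXI1 was log2 7.63 in DMSO, 7.62 with vemurafenib, 7.47 with AT9283 and 7.27 with the combination at 6 h. At 16 h it was 8.01 in DMSO and 8.57 with vemurafenib, the highest of the 6. Its differences in the 3 pairs were -0.00, -0.20 and 0.56. MNT was log2 7.52, 7.53, 7.46 and 7.16 in the same 6 h conditions and 7.92 and 8.35 at 16 h. Its differences in the pairs were 0.01, -0.30 and 0.43. For both genes the 2 arrays at 16 h were above all 4 at 6 h, and the combination was the lowest of the 6.

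MXD1, a repressor induced as cells differentiate, lay below the floor on every array, and so did its other 2 probe sets. Its level was log2 5.79 in DMSO, 5.77 with vemurafenib, 5.58 with AT9283 and 5.00 with the combination at 6 h, and 5.59 and 5.37 at 16 h. Its differences rest on values near background and could not pass the size rule. The MYC relatives MYCN and MYCL and the MLXIP relative MLXIPL were below the floor on all arrays too.

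Fits across all genes were made in limma with Benjamini-Hochberg adjustment. Over the 6 arrays, the model held terms for vemurafenib, for AT9283 and for time, and 2 of the 8 members tested were lower at an adjusted p under 0.05 and 0 were higher. Among all 9707 genes tested 3.33% were lower and 1.44% higher. In this limma fit MYC was lower by -2.77 (SE 0.25, adjusted p = 0.0190) and lower in 3 of 3 pairs. MAX was lower by -0.48 (SE 0.07, adjusted p = 0.0474), also in 3 of 3 pairs. The adjusted p of MAX was above 0.05 with quantile normalization (0.0547), with no floor (0.0548) and with the mean over its probe sets (0.0703), and over all alternatives it ran from 0.0448 to 0.0703, whereas that of MYC ran from 0.0122 to 0.0237. MXD3 (0.55, SE 0.10, limma adjusted p = 0.0591, higher in 3 of 3 pairs) and MLX (-0.60, SE 0.11, limma adjusted p = 0.0641, lower in 3 of 3) missed the threshold. MGA (-0.29, limma adjusted p = 0.125), MXI1 (0.12, 0.634), MNT (0.04, 0.856) and MLXIP (-0.06, 0.759) did too. The 2 residual degrees of freedom of this fit hold how the vemurafenib difference changes with time and with AT9283, not replicate error.

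In the limma fit of the 4 arrays without AT9283, with time as a block, none of the 8 members passed, beside 0.839% of 9651 genes lower and 0.332% higher. Of these members 4 (MYC, MAX, MLX and MXD3) had an unadjusted p under 0.05, as did 22.2% of all genes tested. MYC came nearest, at -2.72 (SE 0.33, limma adjusted p = 0.0533), and with quantile normalization it passed (0.0397). Over all alternatives of this fit the adjusted p of MYC ran from 0.0397 to 0.0836.

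AT9283 alone left all members short of the size rule, as it did nearly all genes, of which 0.0224% rose and 0% fell. MYC differed by -0.21, MXD3 by -0.26, MXD1 by -0.21, MXI1 by -0.16 and MNT by -0.06. MGA differed by 0.28 and MLXIP by 0.18, while MAX and MLX were at 0.00. MGA was higher than 97.1% of genes at the floor in this comparison, and its other probe sets that reached the floor gave 0.26 and 0.59. Only 1.28% of genes were lower than MXD3.

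Combination minus vemurafenib asks the same of AT9283 when vemurafenib is present, and it shares no array with AT9283 minus DMSO. No member passed the size rule, beside 0.322% of genes falling and 0% rising. MYC differed by -0.95 with both arrays below the floor, and by -0.61 with 16 added to each intensity. MXD1 differed by -0.78, also below the floor, MXD3 by -0.52, MNT by -0.37 and MXI1 by -0.36. MLX differed by 0.25, MLXIP by 0.19, MGA by 0.12 and MAX by 0.04. Thus 5 members, MYC and the 4 SIN3-binding repressors measured, were lower with AT9283 in both pairs, and the other 4 were higher in both, MAX and MLX by under 0.01 in one of them. Of 9219 genes at the floor at 6 h, which do not include MXD1, 25.7% were lower in both pairs and 39.8% higher in both. The sign of MAX in either pair and of MLX with AT9283 alone turned under other scaling or probe set choices. The other probe sets of MXD1, below the floor, gave 0.07 and 0.00 with AT9283 alone. In combination minus vemurafenib they gave 0.12 and -0.65. The other MNT probe set, also below the floor, gave -0.30 with AT9283 alone and 0.23 in combination minus vemurafenib.

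**Figure D4:**
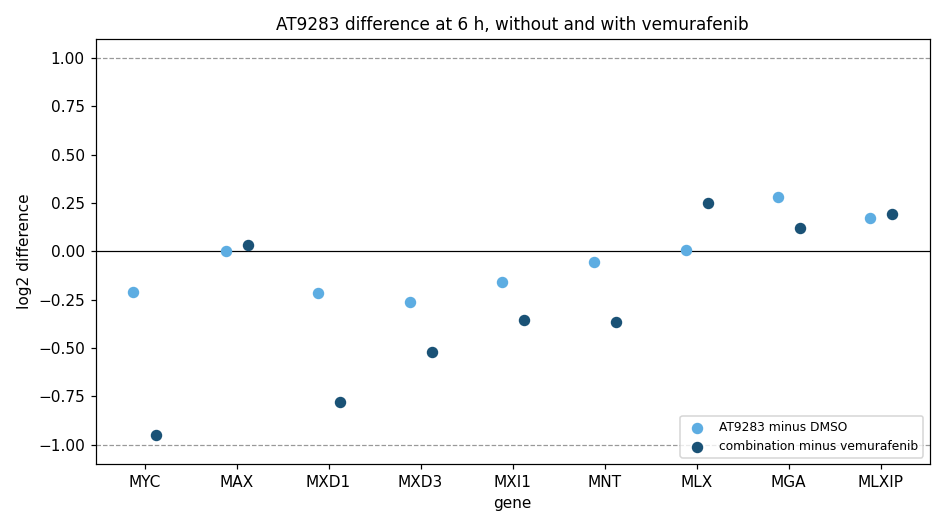
Log2 difference at 6 h (y axis) for each of 9 genes (x axis), as AT9283 minus DMSO and as combination minus vemurafenib, with 1 point per pair of arrays and dashed lines at -1 and 1. MYC, MXD1, MXD3, MXI1 and MNT lie below 0 in both and MGA and MLXIP above 0 in both, and no point reaches a dashed line.

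Between the DMSO arrays MXD3, MNT and MXI1 were higher at 16 h and the other measured members lower. DMSO at 16 h minus DMSO at 6 h was 0.50 for MXD3, 0.40 for MNT and 0.38 for MXI1, and between -0.33 and -0.20 for the other 6 members, where the sign of MXD1 turned with the mean over probe sets and that of MLX without probe sets ending in _s_at or _x_at. None passed the size rule, beside 0.188% of genes rising and 0.0883% falling. That is 17 genes rising and 8 falling, or 15 and 12 with each array centred on its median. No source used here says whether the arrays of both times were processed as one set, so a shift from processing and one from time cannot be told apart. The 6 h values of 1118 probe sets, left out here, sat on wrong rows, so the row order of the values differed between the times. Whether the processing differed too was not tested.

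The 46 measured genes of a list of 52 MYC-induced targets, many of them for ribosome assembly or nucleotide and polyamine synthesis, had small differences at 6 h of vemurafenib and larger ones at 16 h. At 6 h none rose or fell, 39 of 46 were negative and the median was -0.28, against 0.02 for all genes at the floor. At 16 h 17 fell, none rose, all 46 were negative and the median was -0.91, against 5.79% of genes falling, 5.19% rising and a median of -0.00 for all genes. Of the 46 genes 36 were lower in all 3 vemurafenib pairs and none was higher in all 3, against 27.9% and 35.1% of all genes. Those shares cover genes with an array at the floor, as 44 of the 46 had. The list was chosen with earlier results of these data known, so its counts beside those of all genes are a description only.

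The folate carrier SLC19A1 had the largest target difference at 16 h, where it fell by 1.92, from log2 7.42 in DMSO to 5.51, below the floor. The ribosome assembly factors MRTO4 (-1.48), NOP16 (-1.47) and BYSL (-1.38) fell as well. At 6 h these 4 had differences of -0.51, -0.31, -0.52 and -0.56. Several well known targets moved little at 16 h, among them the kinase CDK4 (-0.11), nucleophosmin NPM1 (-0.07) and lactate dehydrogenase LDHA (-0.33). Under the combination at 6 h the list median was -0.10 against DMSO and -0.12 against AT9283 (0.05 and 0.03 for all genes), while MYC itself was lower there than with vemurafenib alone. Combination minus vemurafenib gave a list median of 0.09 with 36 of 46 positive, and AT9283 alone gave 0.03, against 0.03 and 0.02 for all genes. The DMSO pair gave -0.26 with 37 of 46 negative, against -0.04 for all genes, so the list also differed between the DMSO arrays, and the part of that difference in the result was not tested. In the limma fit of 6 arrays 0 of 44 targets tested passed an adjusted p under 0.05 (the lowest was 0.0688) and 16 had an unadjusted p under 0.05, beside 31.3% of all genes tested. In the limma fit of 4 arrays 0 of 44 passed and 24 had an unadjusted p under 0.05, beside 22.2% of all genes tested.

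**Figure D5:**
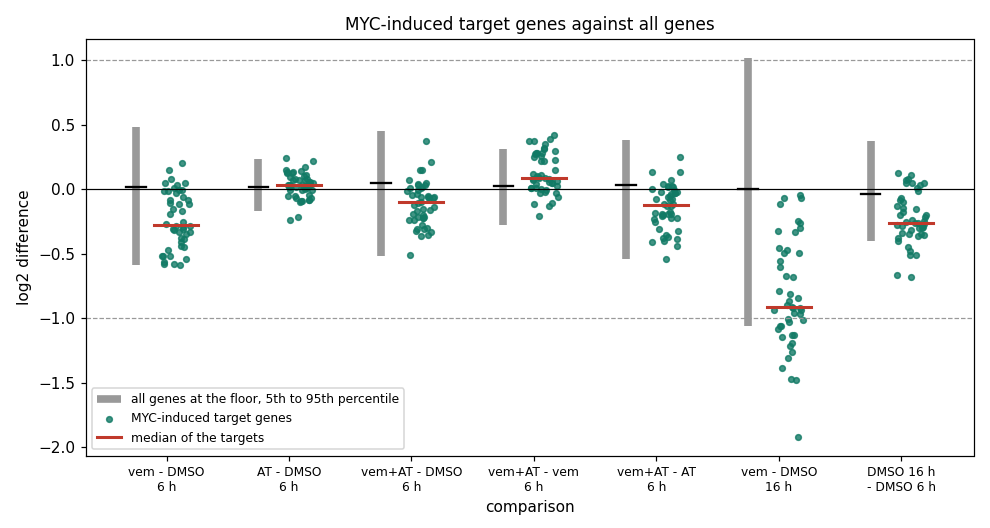
Log2 differences (y axis) of the 46 MYC-induced target genes in each of 7 comparisons (x axis), with 1 point per gene, their median as a red line, and beside them a bar from the 5th to the 95th percentile of all genes at the floor with their median in black. The target median lies at -0.91 for vemurafenib at 16 h and at -0.28 at 6 h, and within 0.1 of 0 for both AT9283 pairs.

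Of 8 genes that MYC is known to repress, 1 rose and 1 fell at 16 h and none did at 6 h. Over all genes at the floor 5.19% rose and 5.79% fell at 16 h, and 1.03% rose and 2.14% fell at 6 h. The CDK inhibitor CDKN1A rose by 1.09, and the matrix gene THBS1 fell by 1.08, against the direction of the list's name. The CDK inhibitor CDKN1B had 0.86 at 6 h and 0.94 at 16 h, short of the rule. The list median was 0.13 at 6 h and 0.38 at 16 h, against 0.02 and -0.00 for all genes.

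Targets of the MLX and MLXIP pair went both ways. TXNIP, an arrestin that limits glucose uptake, stood at log2 7.17 in DMSO, 9.88 with vemurafenib, 7.53 with AT9283 and 9.62 with the combination at 6 h, and at 7.63 and 11.4 at 16 h. Its arrays with vemurafenib were all above those without it, and it rose by 2.71, 2.09 and 3.81 in the 3 pairs. In the limma fit of 6 arrays TXNIP was higher by 2.87 (SE 0.35, adjusted p = 0.0325). In that of 4 arrays TXNIP was higher by 3.26 (SE 0.30, limma adjusted p = 0.0310), and its adjusted p was above 0.05 without the trend (0.0585) and with the mean over probe sets (0.0642). ARRDC4, whose promoter with the E-box is printed above, was below the floor in DMSO at log2 4.51 and 4.02 and reached 6.33 with vemurafenib at 16 h. It rose by 1.38 in combination minus AT9283 and by 2.31 at 16 h, and its difference of 1.32 at 6 h was below the floor on both arrays. In the limma fit of 6 arrays ARRDC4 was higher by 1.67 (SE 0.26, adjusted p = 0.0494), and its adjusted p was 0.0542 with quantile normalization and between 0.0360 and 0.0494 otherwise. In that of 4 arrays ARRDC4 did not pass (1.81, SE 0.41, limma adjusted p = 0.143). In the other direction the glycolytic enzyme HK2 fell at 16 h (-1.03) and had -0.93 at 6 h. The factor KLF10 fell at 6 h (-1.01) and in combination minus AT9283 (-1.07) and had -0.91 at 16 h. PFKFB3, whose product speeds glycolysis, had -0.96 and -0.66, short of the rule. The whole list of 5 had 1 gene rising and 1 falling at 6 h, beside 1.03% and 2.14% of all genes at the floor. At 16 h it had 2 rising and 1 falling, beside 5.19% and 5.79%.

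Genes with a pattern like that of MYC were sought among 1994 genes with a range of 1 or more over the 6 arrays and an array at the floor. The likeness was Pearson's r of log2 values over the 6 arrays, given as a description, since the arrays share their treatments. The 8 nearest were LRATD2 (0.993), INHBA, GDA, PRKCE, FHL2, TNFRSF21, DUSP5 and SAMD4A (0.987). LRATD2, which like MYC lies on chromosome 8, differed by -0.94 with vemurafenib at 6 h, -1.77 with the combination and -1.97 at 16 h. INHBA, a subunit of activin, differed by -1.55, -2.28 and -2.65. Combination minus vemurafenib at 6 h gave -0.83 and -0.73 for these 2 genes, but -0.13 for GDA and -0.16 for TNFRSF21. All 8 were picked by their pattern on these same arrays, so likeness to MYC in a single comparison follows from the choice. For MYC both arrays of that comparison lay below the floor. Among members other than MYC, MXI1 had the widest range, 1.30, and the gene nearest to it of all was MNT (r 0.994). RARA-AS1, CALCOCO1, NDRG1, MEIS1, KDM4C, SERPINA1 and GBGT1 followed, with r down to 0.979. NDRG1 is also 1 of the 8 genes listed as repressed by MYC.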

How the data were processed

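Labelled cRNA from 6 samples of A375 cells was read on Affymetrix arrays, per the labels' protocols, with 1 array per condition and groups taken from the labels. The deposited values are intensity values per probe set on a linear scale, and RMA, version not given in the sources used here, is the tool that the submitters' processing notes name. They were converted to log2 here.

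Genes were named through the annotation of the array platform, where 41097 of 54675 probe sets had 1 symbol, 1801 several and 11777 were not listed. Probe sets without exactly 1 symbol were unused. All 19734 symbols that could be checked equalled those of RefSeq. The 6 h values of 1118 probe sets sat on wrong rows (r of 0.455 between the DMSO arrays, 0.984 once reordered, 0.992 elsewhere), 1102 of them in the 2 identifier ranges that the members' rule names. These and 62 control probe sets were left out. They hold no probe set of a measured member.

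Each gene was read from its brightest probe set, by mean log2 over all arrays. Differences were described by the size rule, and limma 3.58.1 in R 4.3.3 was fitted with a trended prior to all genes with an array at log2 6 or more. Both steps were run on simulated data with independent noise and planted differences that did not change with time or AT9283. Such data cannot show whether the limma p-values hold here, where the residuals hold those changes. Named genes were all members, TXNIP, ARRDC4, per list and comparison up to 4 genes past the size rule with the largest difference, and the 8 most alike genes. Other genes were named after their values were seen. The members and gene lists were chosen with earlier results of these data known, so their counts beside all genes are descriptions only.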

Additional observations from a re-analysis of the deposited data

Results flagged for a closer look

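MLXIP had a difference of -0.23 for vemurafenib minus DMSO at 6 h and of 0.27 at 16 h, opposite directions at the 2 times. This holds for the probe set used, while another MLXIP probe set at the floor gave -0.00 at 6 h and 0.49 at 16 h. The difference between the times was not tested.

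Of the 3 probe sets annotated jointly to MIR4800 and MXD4, which no comparison used, 2 were higher with vemurafenib than with DMSO at 16 h, by 1.10 and 1.03, with the higher array at log2 6.73 and 7.36. The third, below log2 6 on every array, differed by 0.32. At 6 h the 3 gave 0.16, 0.31 and 0.33, in the same order, for the same drug. Which of both genes the signal belongs to cannot be told apart on these probe sets.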

How the results depend on the processing

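The main limits are 1 array per condition, MYC levels under vemurafenib that lie below the floor, and limma residuals that hold interactions in place of replicate error. No paired analysis by replicate number was possible because each condition has 1 array and the labels carry no such numbers. The limma fit of 4 arrays blocks on time.

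MYC kept its direction and its side of the size rule under every alternative in the 4 comparisons in which it fell, though its one probe set left 2 alternatives on probe sets without effect. A lower floor, no floor and the smaller size only loosen the rule, and the misaligned rows hold no MYC probe set. Those alternatives therefore could not have changed the result. The median, quantile, higher floor and added intensity alternatives could have. No member that passed the rule changed sign under any alternative. With a size of 0.58 in place of 1, 3 members passed for vemurafenib at 6 h (MYC, MXD3 and MLX; over all 9095 genes 305 were higher and 462 lower), 2 for combination minus DMSO (MYC and MLX; 240 higher and 391 lower of 9076 genes) and 2 for combination minus AT9283 (MYC and MLX; 176 higher and 414 lower of 9073). With that size the MYC-induced targets past the rule numbered 32 in place of 17 for vemurafenib at 16 h (1253 higher and 1428 lower of 9469 genes), 1 in place of 0 at 6 h and 2 in place of 0 in the DMSO pair (143 higher and 105 lower of 9055). In the limma fit of 6 arrays 1 member, MYC, passed in place of 2 without the floor, with quantile normalization and with the mean over probe sets. In the fit of 4 arrays 1 member, MYC, passed in place of 0 with quantile normalization. Without probe sets ending in _s_at or _x_at, MAX and MLX were read from probe sets below the floor, and MLX then gave 0.20 for combination minus DMSO and 0.25 for combination minus AT9283. Of the member differences recomputed, 645 stayed on their side of the rule, and those of them short of it stayed within 0.13 of their value. MYC differences past the rule are counted there whatever their shift, such as -2.42 in place of -3.30 at 16 h. Another 44 moved by more than 0.13, and 4 passed the rule with the smaller size. The alternatives on the floor, the size and the misaligned rows left every member value as it was. Centring by median in limma and placing the misaligned values in the other order were added after seeing the data.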

Other observations

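Most other genes that work with the network stayed short of the size rule, as did most genes on the arrays. None of 13 cofactors of MYC and MAX measured rose or fell in any of the 7 comparisons. Over all genes at the floor 5.79% fell and 5.19% rose with vemurafenib at 16 h, and smaller shares did in the other comparisons. RUVBL1, an ATPase of chromatin remodellers, differed by -0.98 with vemurafenib at 16 h and WDR5, which helps MYC find chromatin, by -0.81. None of 8 measured corepressor genes of MXD proteins and MNT, SIN3A and HDAC1 among them, rose or fell either.

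Of 11 genes of MYC protein turnover, 1 fell at 16 h of vemurafenib, CIP2A (-1.07), which protects MYC from dephosphorylation, and none did at 6 h. Over all genes at the floor 5.79% fell at 16 h and 2.14% at 6 h. The ligase gene SKP2 differed by -0.81 at 16 h and FBXW7, whose product marks MYC for degradation, by -0.10. Of 8 measured partners of MGA in its repressive complex, PCGF6 fell by 1.05 at 16 h, and TFDP1 and E2F6 differed by -0.92 and -0.76. The median of these partners was -0.13 at 6 h and -0.50 at 16 h, against 0.02 and -0.00 for all genes. Of the 8, 6 were lower in all 3 vemurafenib pairs, against 27.9% of all genes.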
